A study of Mus musculus with 4 samples.

Results

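The genes described here encode the relay between cell-surface receptors and calcium: the subunits of heterotrimeric G proteins, the phospholipase C enzymes and the Rgs proteins that shorten the G-protein signal. They were chosen by a rule on gene names, which was set with earlier results of these data known. The rule used the platform's gene symbols brought to their current form, and 58 of the 16390 named genes on the array met it. These were 15 G alpha genes, 5 G beta genes, 9 G gamma genes, 9 phospholipase C genes and 20 genes whose symbols begin with Rgs. Rgs7bp and Rgs9bp, which carry the Rgs prefix, encode binding partners of Rgs proteins and not regulators themselves. Gng13, Gnat3, Plcb2 and Rgs13, the members of this machinery best known from taste-type signalling, were not counted among the 58 and are given once for scale.

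The study measured RNA of sorted mouse intestinal cells on 4 one-colour arrays, with 1 array for each group. All mice were male and carried 1 Dclk1CreERT2 allele beside a wild-type one. Dclk1+ tumor cells were pooled from tumors of 7 Dclk1CreERT2/+; ApcMin/+ mice aged over 16 weeks, and Dclk1- tumor cells came from 1 such mouse of 17 weeks. Dclk1+ normal cells were pooled from the small intestines of 2 Dclk1CreERT2/+ mice, and Dclk1- normal cells came from 1 mouse, all aged 26 weeks. The Min allele truncates Apc and gives mice many intestinal adenomas. The Dclk1+ tumor sample was sorted by GFP. The sources used here give neither the gates of the other samples nor how GFP was encoded. Because each group is 1 array, no spread between animals was measured, no test was possible, and every difference below compares 2 arrays. Tumor and normal samples also differ in Apc genotype and in age, which cannot be told apart from histology.

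A receptor bound by its ligand makes the G alpha subunit exchange GDP for GTP and part from the G beta-gamma pair. Alpha subunits of the Gq class and free beta-gamma pairs activate phospholipase C beta, which cleaves a membrane lipid into inositol trisphosphate and diacylglycerol, and inositol trisphosphate releases calcium from stores. Rgs proteins speed up GTP hydrolysis by the alpha subunit and so end the signal. Tuft cells, the chemosensory cells of gut epithelium that Dclk1 marks, are known for a taste-type form of this relay that opens the channel Trpm5.

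Levels are given in the authors' normalised intensity, a linear brightness in which the median listed probe of each array stands at about 25, and differences as log2 differences of separately normalised values. The log2 scale compresses dim signals. The zero of the authors' scale lies near the signal of blank spots, at spot intensities between 20.4 and 22.9, so a fold between dim values on it depends on where that zero was set. A gene counted as above background where its spot exceeded the array's blank spots by 2 SD, and as apart where it was at least 2-fold apart and above background on 1 or both arrays. Between 63.3% and 70.9% of the 23473 probes were above background. The sorting gene Dclk1 gave 61.8 in Dclk1+ and 9.49 in Dclk1- tumor cells, and 736 in Dclk1+ and 179.8 in Dclk1- normal cells, so Dclk1 was brighter in the Dclk1+ sample of both pairs, but the sample labelled Dclk1- normal was above the one labelled Dclk1+ tumor. Of 8 tuft markers on the array, Pou2f3 was above background in Dclk1+ normal cells only, while the others were above background in both Dclk1+ samples. The 8 summed to an intensity of 16522 in Dclk1+ and 418 in Dclk1- tumor cells, and 72851 in Dclk1+ and 387 in Dclk1- normal cells. The left-out Gng13, the gamma subunit of taste cells, stood at 2226, 11.7, 1386 and 3.88 in the same order of groups. Plcb2 stood at 1285, 17.2, 2334 and 8.19, and Gnat3, which encodes gustducin, at 42.2, 7.02, 414 and 3.81. Rgs13 stood at 696 in Dclk1+ tumor and 1140 in Dclk1+ normal cells and was not above background in either Dclk1- sample.

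Of the 58 members, 38 were above background on all 4 arrays, 13 on 1 to 3 arrays and 7 on none. The 7 were Gnal, Gnaz, Gnb5, Gng4, Gng7, Plcd4 and Rgs7. By sample, 46 members were above background among Dclk1+ and 44 among Dclk1- tumor cells, and 45 among Dclk1+ and 42 among Dclk1- normal cells. The signal of a probe depends on its sequence as well as on its RNA, so levels are compared between samples and not between genes.

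**Figure D1:**
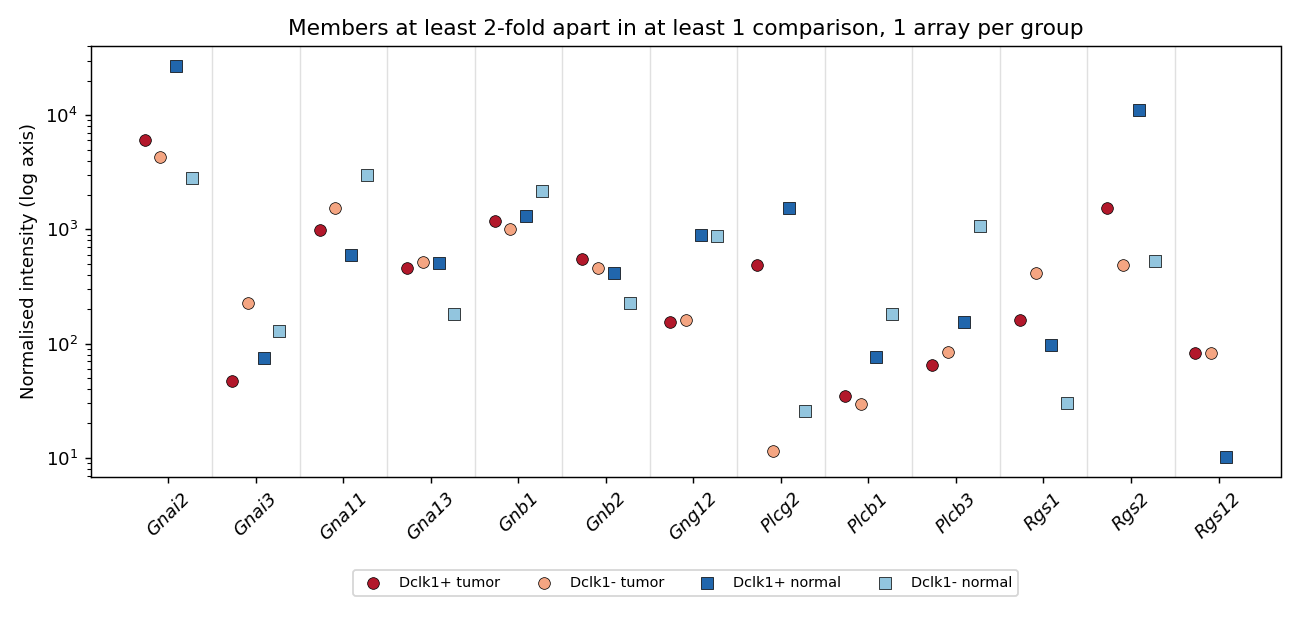
Normalised intensity on a log axis for the 13 members at least 2-fold apart in 1 or more of the 4 comparisons, with 1 point per array (circles for tumor, squares for normal). Plcg2 is high in both Dclk1+ samples, and Gnai2 and Rgs2 are highest in Dclk1+ normal cells. Rgs12 has no point for Dclk1- normal cells because the authors' value is empty there.

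In tumors, Dclk1+ cells had higher signals than Dclk1- cells for Plcg2 and Rgs2 and lower signals for Gnai3 and Rgs1. The pair had 47 members above background. Of these, 2 (4.26%) reached 2-fold higher, against 1.76% of all 12198 genes, and 2 (4.26%) reached 2-fold lower, against 2.13%. At 4-fold, Plcg2 alone was higher, against 0.434% of all genes, and 0 members were lower, against 0.287%. The authors' intensities, taken as they stand, put 10 members higher, against 18.2% of all genes, and 3 lower, against 11.2%, with the median gene itself 0.35 higher on the log2 scale. The median difference over the 47 members was -0.00, against 0.01 over all genes. The counts on the log2 scale are a few genes each, so what follows are values of single members.

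Plcg2 encodes a phospholipase C that tyrosine kinases activate and that is best known from B cells and myeloid cells. It stood at 490 in Dclk1+ tumor and 11.5 in Dclk1- tumor cells, a log2 difference of 2.72, and at 1540 in Dclk1+ normal and 25.6 in Dclk1- normal cells, a difference of 3.72. Both Dclk1+ samples were thus far above both Dclk1- samples, 42.6-fold in tumor and 60.2-fold in normal epithelium on the authors' scale. Among markers of blood cells, 7 of 9 myeloid genes were above background in every sample, with Adgre1 and Itgam below it in all 4. Their summed intensity was 1386 in Dclk1+ and 3569 in Dclk1- tumor cells, and 1574 in Dclk1+ and 597 in Dclk1- normal cells, an order unlike that of Plcg2. The 4 genes of B and plasma cells summed to 305, 112.6, 191.2 and 81.4 in the same order of groups. As for Plcg2, both Dclk1+ samples lay above both Dclk1- samples in this sum. None of the 4 was 2-fold apart in either pair on the log2 scale, where Cd79b came to 0.97 in tumor and 0.84 in normal epithelium. Cd79b alone stood at 280.1, 95.4, 161.2 and 50.7 and made up most of each sum. Ms4a1 and Cd79a stood at no more than 10.4 in any sample. Cd79a followed the order of the sum, but Mzb1 (17.2, 9.85, 16.7 and 21.6) and Ms4a1 were highest in Dclk1- normal cells. The part of such cells in the Plcg2 signal was not tested.

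Rgs2 encodes a regulator that prefers alpha subunits of the Gq class. Its intensity was 1530 in Dclk1+ tumor and 487 in Dclk1- tumor cells, a log2 difference of 1.33. In normal epithelium it was 11092 in Dclk1+ and 529 in Dclk1- cells, a difference of 3.92. The 2 Dclk1- samples were close to each other, and Dclk1+ normal cells stood above all the rest.

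Gnai3 and Rgs1 stood on the Dclk1- side of the tumor pair. Gnai3, an inhibitory alpha subunit, was at 46.6 in Dclk1+ tumor and 229 in Dclk1- tumor cells (log2 difference -1.53), and at 74.3 in Dclk1+ normal and 129.8 in Dclk1- normal cells (-0.54). The Dclk1- sample was the brighter of both pairs. Rgs1, a regulator abundant in activated lymphocytes and other immune cells, was at 162.0 in Dclk1+ tumor and 416 in Dclk1- tumor cells (-1.32), but at 97.4 in Dclk1+ normal and 29.97 in Dclk1- normal cells (0.67). The 4 samples fell in the same order for Rgs1 as the myeloid sum above, apart from the middle pair, and 3 of the 7 myeloid genes above background were at least 2-fold lower in Dclk1+ tumor than in Dclk1- tumor cells. The 8 markers of T and NK cells summed to 33.9 in Dclk1+ tumor and 36.3 in Dclk1- tumor cells. The part of myeloid cells in the Rgs1 values was not tested. The tumor value of Rgs1 turned to 0.33 when the local background was subtracted from each spot.

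In normal epithelium, Gnai2 joined Plcg2 and Rgs2 on the Dclk1+ side, and Gna11, Plcb3 and Gnb1 stood on the Dclk1- side. Of 49 members above background, 3 were at least 2-fold higher, against 5.66% of all 12845 genes, and 3 were at least 2-fold lower, against 5.92%. The 3 higher members were also past 4-fold, against 1.61% of all genes, as were 2 of the lower ones, against 2.16%. The authors' intensities put 13 members higher, against 23.3% of all genes, and 12 lower, against 16%. The median difference was 0.03 over the members and 0.01 over all genes.

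Gnai2 encodes an inhibitory alpha subunit that lowers cyclic AMP. It stood at 27185 in Dclk1+ normal and 2811 in Dclk1- normal cells, a log2 difference of 2.85, and at 6007 in Dclk1+ tumor and 4306 in Dclk1- tumor cells, a difference of 0.13. Dclk1+ normal cells stood apart, and the other 3 samples lay between 2811 and 6007. With the local background subtracted from each spot, the tumor difference was -2.72.

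Of the members lower in Dclk1+ normal cells, Gna11 and Plcb3 belong to the Gq branch. Gna11, a Gq-class alpha subunit, was at 591 in Dclk1+ normal and 2984 in Dclk1- normal cells (log2 difference -2.48), and at 987 in Dclk1+ tumor and 1526 in Dclk1- tumor cells (-0.86). Plcb3, a phospholipase C that Gq and beta-gamma subunits activate, was at 154.0 in Dclk1+ normal and 1061 in Dclk1- normal cells (-2.45), and at 64.6 in Dclk1+ tumor and 85.2 in Dclk1- tumor cells (-0.29). For both genes Dclk1- normal cells were the brightest of the 4 samples and the Dclk1+ sample was the dimmer of each pair. Gnb1, a widely used beta subunit, was at 1314 in Dclk1+ normal and 2153 in Dclk1- normal cells (-1.04), and at 1182 in Dclk1+ tumor and 1015 in Dclk1- tumor cells (-0.05). It stayed just past the 2-fold line, which it lost with 3 other settings (-0.97 to -0.71). Markers of other epithelial cells were lower in Dclk1+ normal cells too. Of the 6 goblet markers all 6 were at least 2-fold lower, with summed intensities of 7603 in Dclk1+ and 180562 in Dclk1- normal cells, as were 7 of 10 enteroendocrine markers (6541 against 38423), 4 of 4 Paneth markers (157 against 4704) and 5 of 6 enterocyte markers, although Fabp1 raised the enterocyte sum to 66674 against 52332. Their part in the Gna11 and Plcb3 values was not tested, and in sorted bulk samples fewer cells of a type cannot be told apart from less RNA per cell.

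**Figure D2:**
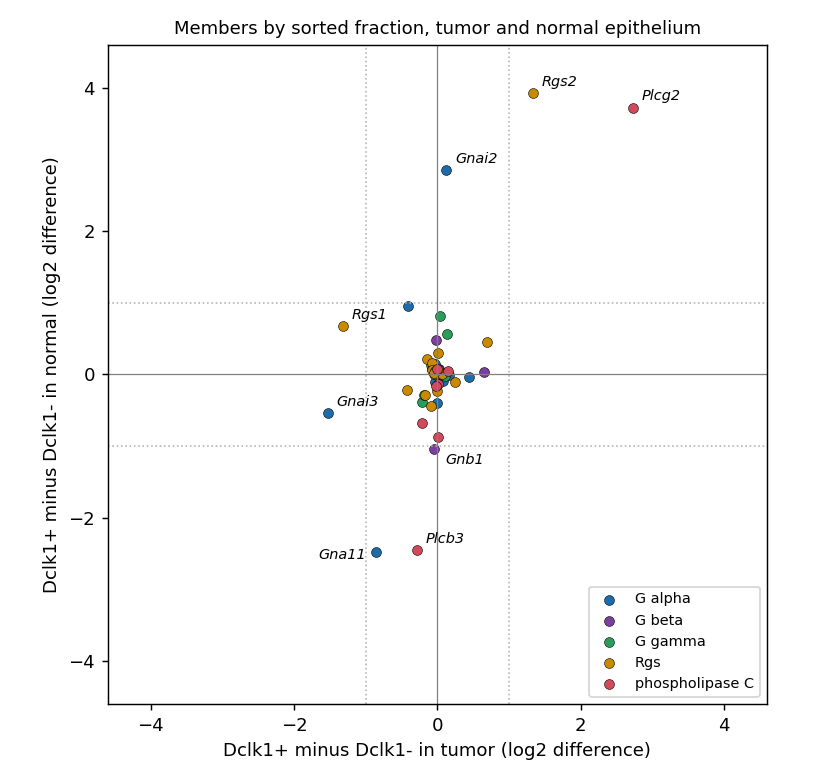
Log2 difference of Dclk1+ minus Dclk1- cells in tumor (horizontal) and in normal epithelium (vertical) for the 51 members above background on at least 1 array, coloured by family, with dotted lines at 2-fold. Plcg2 and Rgs2 lie past 2-fold in both pairs, Gnai2, Gna11, Plcb3 and Gnb1 in normal epithelium, and Gnai3 and Rgs1 in tumor.

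The other members near these genes in role were within 2-fold between Dclk1+ and Dclk1- cells on the log2 scale of the text. With an offset of 16, Gna13 (1.10), Gng11 and Plcb1 (-1.16) passed 2-fold in normal epithelium. Gnaq, the closest relative of Gna11, gave 27.6 in Dclk1+ and 24.8 in Dclk1- tumor cells, and 46.6 in Dclk1+ and 32.7 in Dclk1- normal cells. Plcb1, a second Gq-activated enzyme, stood at 35.1, 29.7, 76.4 and 181.7 in that order of groups, so that it too was lower in Dclk1+ than in Dclk1- normal cells, by 0.87 on the log2 scale. Gna13, another alpha subunit, was at 508 in Dclk1+ normal and 181.3 in Dclk1- normal cells (0.96), and at 462 in Dclk1+ tumor and 516 in Dclk1- tumor cells (-0.41). Among the gamma subunits, the widest difference in normal epithelium was that of Gng11, at 292 in Dclk1+ and 112.3 in Dclk1- cells (0.82), and in tumor it was that of Gng10 (-0.21). No gamma member was 2-fold apart between Dclk1+ and Dclk1- cells on this scale, among 7 above background in each pair.

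The promoters of the genes that separated Dclk1+ from Dclk1- cells are shown because 2 of them, Rgs2 and Plcg2, moved together in both pairs, and Gna11 and Plcb3 moved the other way in normal epithelium. Each line gives the 250 bases before the annotated start on the gene's own strand, 5′ to 3′, from RefSeq (GRCm38.p6). Gnai2 is named only. Capitals mark matches on either strand to any of 5 motifs: TGACG (the core of the cyclic AMP response element), ATGCAAAT (the octamer of POU factors), CTTTGA (a core of TCF/LEF sites), GGGCGG (the GC box) and TATAAA (the TATA box). None of these motifs contains another, and the motifs were chosen with the sequences in view.
Rgs2, chr1:144004150-144004399, minus strand: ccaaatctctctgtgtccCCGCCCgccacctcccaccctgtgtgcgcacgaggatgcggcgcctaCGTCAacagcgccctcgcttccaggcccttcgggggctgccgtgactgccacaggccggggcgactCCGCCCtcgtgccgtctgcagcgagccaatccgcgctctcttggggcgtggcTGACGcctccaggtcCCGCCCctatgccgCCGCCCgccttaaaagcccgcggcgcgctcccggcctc
Plcg2, chr8:117498025-117498274, plus strand: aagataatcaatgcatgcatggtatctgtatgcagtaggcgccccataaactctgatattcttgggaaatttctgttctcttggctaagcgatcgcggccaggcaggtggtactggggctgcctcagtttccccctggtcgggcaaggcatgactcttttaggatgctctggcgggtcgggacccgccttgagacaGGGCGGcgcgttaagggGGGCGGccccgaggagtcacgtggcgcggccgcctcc
Gna11, chr10:81545163-81545412, minus strand: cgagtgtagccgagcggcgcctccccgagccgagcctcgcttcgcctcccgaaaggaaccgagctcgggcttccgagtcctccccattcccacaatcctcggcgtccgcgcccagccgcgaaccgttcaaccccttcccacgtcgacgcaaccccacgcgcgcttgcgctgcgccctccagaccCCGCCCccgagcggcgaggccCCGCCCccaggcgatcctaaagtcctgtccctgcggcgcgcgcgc
Plcb3, chr19:6969815-6970064, minus strand: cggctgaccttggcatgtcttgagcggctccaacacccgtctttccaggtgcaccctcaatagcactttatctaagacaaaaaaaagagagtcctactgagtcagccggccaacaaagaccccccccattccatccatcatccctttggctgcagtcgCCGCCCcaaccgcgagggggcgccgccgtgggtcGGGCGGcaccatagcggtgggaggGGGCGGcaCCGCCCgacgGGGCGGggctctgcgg

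All 4 windows were rich in G and C, with 72.4% in Rgs2, 59.6% in Plcg2, 73.2% in Gna11 and 64.4% in Plcb3, against a median of 52.4% over 32851 RefSeq windows. GC boxes occurred 4 times in Rgs2, 2 times in Plcg2, 2 times in Gna11 and 5 times in Plcb3, and 32.7% of all windows held at least 1. The motif TGACG occurred 2 times in Rgs2, beginning 185 and 67 bases before the start, and in none of the other 3, against 17.8% of all windows. No window of the 4 held the octamer (1.60% of all windows), CTTTGA (13.8%) or TATAAA (12.4%). Of the 58 members, 44 had 1 or more windows, 59 in all, and 52.5% of these held a GC box. A match describes the letters in this window and is not a binding site.

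Between tumor and normal Dclk1+ cells, the 3 genes that marked the Dclk1+ fraction of normal epithelium were lower in tumor, and Gng12 with them. This comparison shares the Dclk1+ normal array with the normal pair. A high reading on that 1 array would enter both differences, so they are not separate observations. Gnai2, Gng12, Plcg2 and Rgs2 were at least 2-fold lower in Dclk1+ tumor than in Dclk1+ normal cells, 4 of 50 members above background, against 4.2% of all 12869 genes. No member was at least 2-fold higher, against 4.27%. At 4-fold, Rgs2 alone was lower, against 0.42% of all genes, and 0 members were higher, against 1.17%. That absence rests on the compressed scale: with an offset of 16 in place of 50, 8 members were 2-fold higher, against 7.38% of all genes, and 5 were lower, against 6.88%. The 8 were Gna11, Gna14, Gnb3, Gng10, Plcd3, Plce1, Rgs12 and Rgs7bp. The authors' intensities put 11 members higher, against 13.5% of all genes, and 12 lower, against 27.2%. The median difference was -0.01 over the members and -0.03 over all genes.

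The log2 differences were -2.46 for Rgs2, -1.85 for Gnai2 and -1.17 for Plcg2, from the intensities given above. The tuft marker sum was lower in Dclk1+ tumor than in Dclk1+ normal cells as well, 16522 against 72851, with 7 of its 8 genes at least 2-fold lower, and its part in these values was not tested. On the authors' scale Dclk1+ tumor cells were 7.25-fold lower for Rgs2, 4.53-fold for Gnai2 and 3.14-fold for Plcg2. With the local background subtracted, Plcg2 was at -0.60 and Gnai2 at -5.36.

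Gng12, a gamma subunit found in many tissues, had another pattern. It stood at 153.1 in Dclk1+ tumor and 159.3 in Dclk1- tumor cells, against 889 in Dclk1+ normal and 878 in Dclk1- normal cells. The 2 sorted fractions were alike within each histology, and both tumor samples were far below both normal samples. The log2 difference of tumor from normal was -1.83 in Dclk1+ and -1.94 in Dclk1- cells, the second of which was -0.97 with the local background subtracted. No other member was 2-fold lower in tumor in both fractions on this scale. With the authors' intensities Gna15, Plcb1, Plcb3 and Plcg2 were so as well, with the blank mean subtracted Plcb3 was, and with the local background subtracted Gna11 was and Gng12 was not.

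Between Dclk1- tumor and Dclk1- normal cells, Rgs1, Gna13, Rgs12 and Gnb2 were higher in tumor, and Plcb3, Gng12 and Plcb1 were lower. Of 44 members above background, 4 were at least 2-fold higher, against 5.83% of all 12341 genes, and 3 were at least 2-fold lower, against 5.24%. At 4-fold, Rgs1 alone was higher, against 1.17% of all genes, and Plcb3 alone lower, against 1.3%. The authors' intensities put 11 members higher, against 14.6% of all genes, and 13 lower, against 29.2%. The median difference was 0.00 over the members and -0.02 over all genes.

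Rgs1 stood at 416 in Dclk1- tumor against 29.97 in Dclk1- normal cells, a log2 difference of 2.53. The myeloid sum was 3569 against 597 in the same samples, with 5 of 7 genes at least 2-fold higher in tumor. The sum of T and NK markers was 36.3 in Dclk1- tumor and 260 in Dclk1- normal cells, with Cd3e below background in every sample. Of 7 such genes above background in this pair, 1 was at least 2-fold lower in tumor, Cd8a (7.69 against 126.4). The part of these cell types in the Rgs1 values was not tested. Gna13 stood at 516 in Dclk1- tumor and 181.3 in Dclk1- normal cells (1.45), while Dclk1+ tumor and Dclk1+ normal cells were nearly level at 462 and 508. Gnb2, a beta subunit, stood at 462 in Dclk1- tumor and 226 in Dclk1- normal cells (1.05), and at 549 in Dclk1+ tumor and 417 in Dclk1+ normal cells (0.54). With the local background subtracted, Rgs1 was at 0.39, Gna13 at 0.81 and Gnb2 at 1.82.

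Rgs12, a large Rgs protein with several binding domains, was at 83.3 in Dclk1+ tumor, 83.4 in Dclk1- tumor and 10.2 in Dclk1+ normal cells. It was not above background in Dclk1- normal cells, where only a bound can be given. Dclk1- tumor cells were at least 2.26-fold higher, taking the dim array at its lowest signal above background. Both tumor samples were thus alike and above both normal samples.

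The phospholipase C beta genes that were lower in Dclk1- tumor cells act downstream of Gq. Plcb3 was at 85.2 in Dclk1- tumor against 1061 in Dclk1- normal cells, a log2 difference of -2.78, and at 64.6 in Dclk1+ tumor against 154.0 in Dclk1+ normal cells, a difference of -0.62. Plcb1 was at 29.7 in Dclk1- tumor against 181.7 in Dclk1- normal cells (-1.29), and at 35.1 in Dclk1+ tumor against 76.4 in Dclk1+ normal cells (-0.41). Dclk1- normal cells held the highest value of both genes. The array of Dclk1- normal cells is also part of the normal pair, where both genes were lower in Dclk1+ cells. Plcb1 was at -0.76 with the local background subtracted. Many markers of other epithelial cells were also at least 2-fold lower in Dclk1- tumor than in Dclk1- normal cells. They were 8 of 10 enteroendocrine markers (summed intensities of 653 against 38423), 5 of 6 enterocyte markers (16012 against 52332) and 4 of 6 goblet markers (42444 against 180562). Of 4 Paneth markers, 2 were at least 2-fold higher and 0 lower. The part of these cell types in the Plcb3 and Plcb1 values was not tested.

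**Figure D3:**
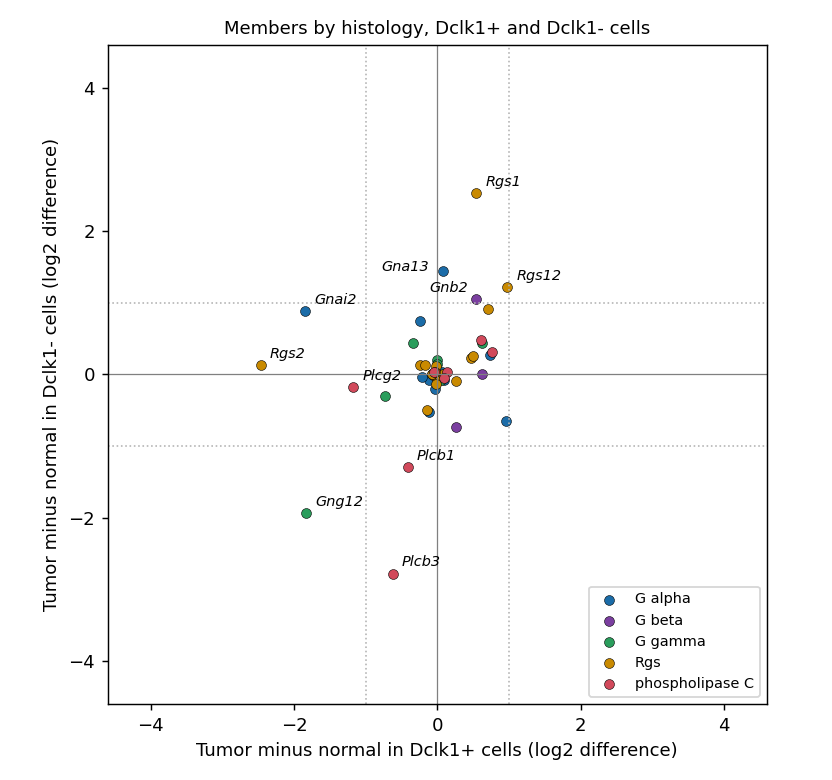
Log2 difference of tumor minus normal in Dclk1+ cells (horizontal) and in Dclk1- cells (vertical) for the 51 members above background on at least 1 array, with dotted lines at 2-fold. Gng12 is past 2-fold in both fractions, Rgs2, Gnai2 and Plcg2 in Dclk1+ cells, and Rgs1, Gna13, Rgs12, Gnb2, Plcb1 and Plcb3 in Dclk1- cells.

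The comparisons of sorted fractions in tumor and in normal epithelium share no array, so their differences can be set side by side. The Dclk1+ minus Dclk1- difference was less positive in tumor than in normal epithelium by 2.73 for Gnai2 (0.13 against 2.85), by 2.59 for Rgs2 and by 1.00 for Plcg2. It was less negative in tumor by 2.16 for Plcb3 (-0.29 against -2.45) and by 1.62 for Gna11. All of these genes had passed 2-fold in the normal pair, so they were picked for a wide difference there. Other members did not simply come closer in tumor. The difference of Rgs1 changed sign (-1.32 in tumor against 0.67 in normal epithelium), as did that of Gna13 (-0.41 against 0.96). That of Gnai3 was more negative in tumor (-1.53 against -0.54). Of the left-out genes, Gng13 was more positive in tumor, at 4.86 against 3.95, while Plcb2 (3.97 against 4.57) and Gnat3 (0.51 against 2.53) were less positive there. Rgs13 has only bounds, at least 10.7-fold in tumor and at least 13.3-fold in normal epithelium. These contrasts between histologies were not tested.

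Several dim members, named after their values were seen, were far apart in intensity but within 2-fold on the compressed log2 scale. They were sought with the authors' intensities at 4-fold or more, among members above background on both arrays. In the tumor pair 3 of 43 members were higher in Dclk1+ cells by this measure, against 2.84% of all genes, and 1 was lower, against 2.2%. In the normal pair 4 of 38 were higher, against 6.51%, and 3 were lower, against 6.28%. Between tumor and normal, 5 of 41 members were higher and 3 lower in Dclk1+ tumor cells (4.72% and 5.52% of all genes), and 2 of 42 were higher and 5 lower in Dclk1- tumor cells (4.32% and 7.28%). These counts include brighter members already past 2-fold on the log2 scale. Of the higher members, 2 in the tumor pair, 1 in the normal pair, 5 in Dclk1+ and 1 in Dclk1- tumor cells were not. Of the lower members, 0, 1, 0 and 2 were not, in the same order.

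Rgs11, one of the Rgs proteins that pair with the G beta protein Gnb5, was the member of this kind seen in both pairs. It stood at 70.6 in Dclk1+ tumor and 14.5 in Dclk1- tumor cells, and at 35.8 in Dclk1+ normal and 4.98 in Dclk1- normal cells. Both Dclk1+ samples were above both Dclk1- samples, 4.86-fold in tumor and 7.19-fold in normal epithelium on the authors' scale, with log2 differences of 0.69 and 0.46. The spot intensities before any subtraction were 69.0 in Dclk1+ tumor and 37.6 in Dclk1- tumor cells, and 41.7 in Dclk1+ normal and 25.4 in Dclk1- normal cells, under 2-fold in both pairs. Rgs17, a regulator of Gi and Gz subunits, was at 18.2 in Dclk1+ tumor and 3.40 in Dclk1- tumor cells, but at 5.08 in Dclk1+ normal and 10.1 in Dclk1- normal cells. Its direction differed between the pairs, at levels close to background.

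Other dim genes separated tumor from normal. Gna14, a Gq-class alpha subunit, was at 54.6 in Dclk1+ tumor and 18.5 in Dclk1- tumor cells, against 6.08 in Dclk1+ normal and 7.26 in Dclk1- normal cells. Rgs7bp was at 48.5 in Dclk1+ tumor and 79.1 in Dclk1- tumor cells, against 3.70 in Dclk1+ normal and 15.1 in Dclk1- normal cells. Both tumor samples were above both normal samples for each of these genes. Plcd3, a calcium-sensitive phospholipase C, was at 50.2 and 45.5 in Dclk1+ and Dclk1- tumor cells, against 10.2 and 18.6 in Dclk1+ and Dclk1- normal cells. Gng10 was at 50.2 and 60.6 in Dclk1+ and Dclk1- tumor cells, against 9.99 and 33.5 in Dclk1+ and Dclk1- normal cells. In the other direction, Gna15, a Gq-class subunit of blood cells, was at 4.29 in Dclk1- tumor and 39.5 in Dclk1- normal cells, and Gnai1 was at 3.26 and 16.4 in the same samples. Gnb3, a beta subunit that taste cells use, was above background in Dclk1+ tumor cells only, at 40.7, and was at least 1.54-fold higher there than in Dclk1+ normal cells.

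The remaining members were not 2-fold apart on the log2 scale in any comparison, although some were under other settings. With an offset of 16, Gng8 and Plce1 passed 2-fold between tumor and normal Dclk1+ cells, and Plce1 in the normal pair too. Rgs9 did so in the normal pair and between tumor and normal Dclk1- cells with the blank mean subtracted. The authors' intensities put more of them past 2-fold, among them Gng2, Gngt2, Rgs3 and Rgs16. Gnas, the stimulatory alpha subunit that raises cyclic AMP, gave 30.3 in Dclk1+ and 16.1 in Dclk1- tumor cells, and 27.2 in Dclk1+ and 25.7 in Dclk1- normal cells. In that order of groups, Rgs3 (41.0, 35.1, 10.4 and 23.4), Rgs10 (33.8, 39.0, 57.1 and 36.3) and Gng8 (52.0, 35.8, 147.5 and 68.6) were above background on all 4 arrays. So were Gna12, Gnao1, Gnat2, Gnb4, Gng2, Gngt1, Gngt2, Rgs8, Rgs9, Rgs14, Rgs18 and Rgs19, of which Rgs9 reached 57.6 in Dclk1- normal cells and the others reached at most 18.4. Plce1, which binds Ras-family proteins, was at 48.2, 59.3 and 41.7 in Dclk1+ tumor, Dclk1- tumor and Dclk1- normal cells and not above background in Dclk1+ normal cells. Gnat1, Plcb4, Plcd1, Plcg1, Rgs4, Rgs5, Rgs6, Rgs9bp, Rgs16 and Rgs20 were above background on 1 to 3 arrays. Of these, Rgs16 stood at 9.24 in Dclk1+ tumor, 7.23 in Dclk1- tumor and 21.4 in Dclk1+ normal cells, and Plcg1 at 3.73 in Dclk1+ normal cells alone.

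Other genes of the pathway were compared in the same way, and each count of genes apart is a few genes. For scale, 1.76% of all genes were 2-fold higher and 2.13% lower in the tumor pair, and 5.66% were higher and 5.92% lower in the normal pair. Between tumor and normal, 4.27% were higher and 4.2% lower in Dclk1+ tumor cells, and 5.83% higher and 5.24% lower in Dclk1- tumor cells. Of 33 second-messenger genes on the array, 26 were above background in the tumor pair, where Dclk1+ cells had 1 of them 2-fold higher and 1 lower, and 30 in the normal pair, where 2 were higher and 3 lower. The higher genes were Trpm5, the calcium-activated cation channel (2343 in Dclk1+ tumor and 14.8 in Dclk1- tumor cells, 13231 in Dclk1+ normal and 76.2 in Dclk1- normal cells), and, in normal epithelium, the adenylyl cyclase Adcy9 (802 in Dclk1+ and 168.0 in Dclk1- cells, log2 difference 1.57). The kinase Prkcd was lower in both pairs, at 178.7 in Dclk1+ tumor and 429 in Dclk1- tumor cells (-1.27) and at 71.4 in Dclk1+ normal and 2119 in Dclk1- normal cells (-4.01). Prkaca, a catalytic subunit of protein kinase A (-2.46), and the diacylglycerol kinase Dgkb (-1.26) were lower in Dclk1+ normal cells. The list's median difference was 0.01 in the tumor pair and 0.04 in the normal pair, against 0.01 over all genes in both. Between tumor and normal, 0 of 28 were higher and 2 lower in Dclk1+ tumor cells, Trpm5 and Prkcz (-1.15), and 0 of 26 were higher and 4 lower in Dclk1- tumor cells, Dgkb, Prkaca, Prkcd and Prkcz.

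Among 23 regulators outside the Rgs family, none was 2-fold apart between Dclk1+ and Dclk1- cells, over 18 above background in tumor and 19 in normal epithelium, with medians of 0.09 and 0.25. Rap1gap was 2-fold higher in Dclk1+ tumor than in Dclk1+ normal cells (430 against 120.6, log2 difference 1.47), and the receptor kinase Grk2 in Dclk1- tumor than in Dclk1- normal cells (746 against 394, 1.07). Of 33 receptors coupled to G proteins, 17 were above background in the tumor pair, with 1 higher and 1 lower in Dclk1+ cells, and 21 in the normal pair, with 3 higher and 4 lower. Their medians were -0.02 and -0.06. Vmn2r26, a vomeronasal-type receptor, was at 88.2 in Dclk1+ tumor and 104.5 in Dclk1+ normal cells, against 3.97 in Dclk1- normal cells and a value not above background in Dclk1- tumor cells. Sucnr1, the succinate receptor of tuft cells, was at 28.2 in Dclk1+ tumor and 125.5 in Dclk1+ normal cells and not above background in either Dclk1- sample, which made it at least 2.52-fold higher in the normal pair. Ffar3 reached 2-fold in normal epithelium (87.6 in Dclk1+ and 5.33 in Dclk1- cells). Ffar2, Ffar4, Lpar1 and Ptger4 were lower in Dclk1+ normal cells, and Ffar2 was lower in Dclk1+ tumor cells too (-1.19).

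**Figure D4:**
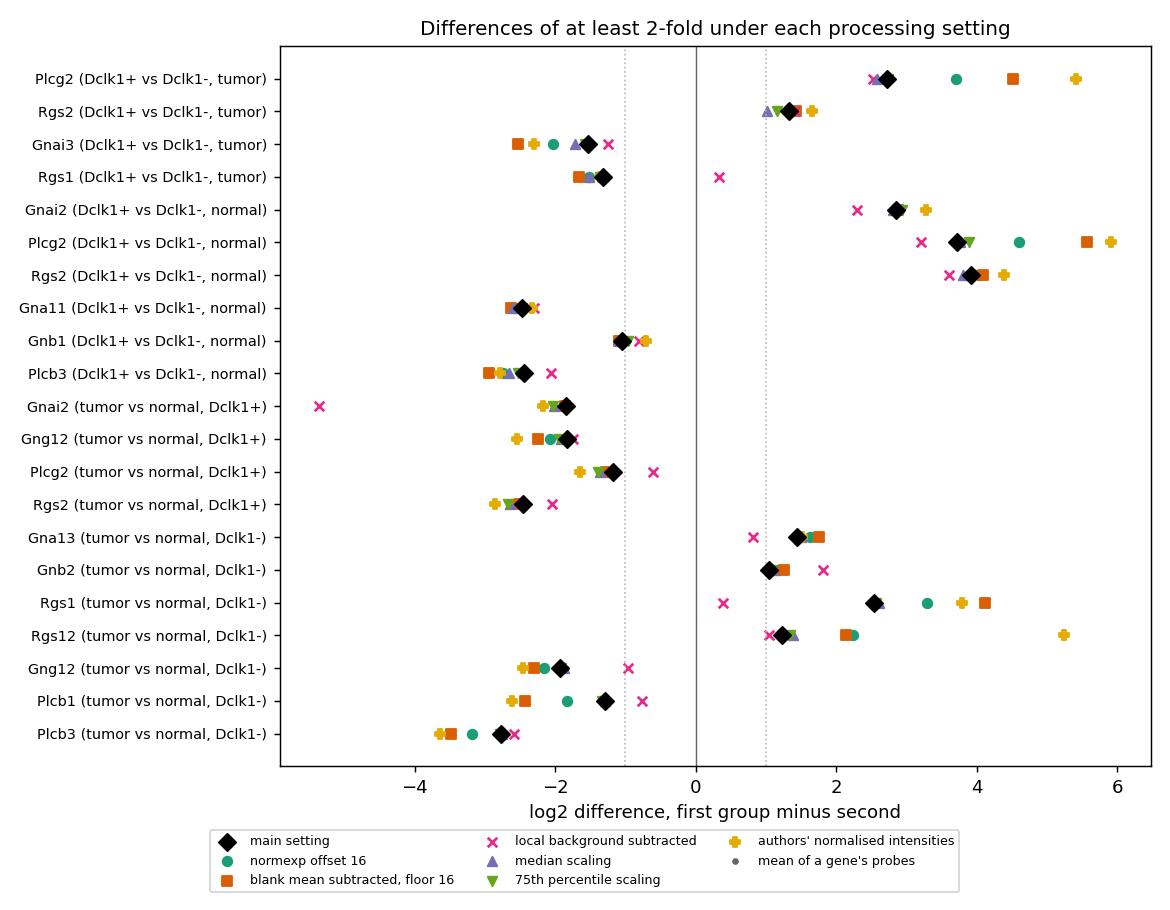
Log2 differences of the 21 gene and comparison pairs at least 2-fold apart, under the setting used in the text (black diamonds) and 7 other settings of background correction, scaling and probe choice, with dotted lines at 2-fold. In 20 of the 21 every setting kept the sign, and the exception is Rgs1 in tumor with the local background subtracted.

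Of the 21 differences of at least 2-fold described here, 14 stayed past 2-fold in the same direction under the setting used in the text and all 7 alternatives. They include all values of Rgs2, the values of Plcg2 for Dclk1+ against Dclk1- cells in both pairs, both values of Gnai2 and both values of Plcb3. The 7 that did not were Gnb1 in the normal pair, Rgs1 in tumor and in Dclk1- cells, Plcg2 in Dclk1+ tumor against normal cells, and Gna13, Gng12 and Plcb1 in Dclk1- tumor against normal cells.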

How the data were processed

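RNA of 4 sorted cell samples was measured on 1 single-colour (Cy5) array each, so no group had replicates. The scanner files give the median spot intensity, joined over 3 gains by straight-line fits per the file headers, with no background subtracted. The authors' deposited normalised intensities were found, by setting them against the scanner values, to be a straight line of the spot intensity with the median listed probe at about 25 on each array and dim probes left empty. The sources used here do not say how it was made.

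Spot intensities were background-corrected with normexp (offset 50) on all spots, the 2736 blank and 144 control spots were left out, and probes were quantile-normalised and log2-transformed (limma 3.58.1, R 4.3.3). The 23473 probes include 16631 with 1 gene symbol, for 16390 genes after 3947 older symbols were updated through RefSeq (GRCm38.p6). The brightest probe stood for a gene, and no member had more than 1. Above background meant above the mean of the blank spots plus 2 SD. An at-least fold sets the brighter array against the higher of the dim probe's own signal and the lowest signal above background. Genes were named where at least 2-fold apart in any comparison or among the 3 brightest of their family, and dim genes also where 4-fold apart in the authors' intensities, a choice made after their values were seen. The members and the gene lists were chosen with earlier results of these data known. The steps were tested on simulated arrays. The number of arrays limits the precision. Alternatives were another offset, subtraction of blank or local background, 2 scalings, the authors' intensities, the mean of a gene's probes and a 4-fold threshold.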

Additional observations from a re-analysis of the deposited data

Results flagged for a closer look

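Rgs1 stood apart because its difference between sorted fractions ran in opposite directions in the 2 histologies. Dclk1+ cells were lower than Dclk1- cells in tumor (-1.32) and higher in normal epithelium (0.67), a gap of -1.99 on the log2 scale. The difference between the histologies was not tested, and with the local background subtracted Dclk1+ cells were higher in tumor too (0.33).

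Gnai2 and Rgs2 stood apart in the same way between tumor and normal. Gnai2 was lower in tumor among Dclk1+ cells (-1.85) and higher among Dclk1- cells (0.88), a gap of -2.73, and with the local background subtracted it was lower in tumor in both fractions (-5.36 in Dclk1+ and -0.34 in Dclk1- cells). Rgs2 was lower in tumor among Dclk1+ cells (-2.46) and near level among Dclk1- cells (0.13), a gap of -2.59. Neither gap was tested, since each group is 1 array.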

How the results depend on the processing

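Of 21 differences of at least 2-fold among the members, 20 kept their sign under all 7 alternatives of background correction, scaling and probe choice, and the exception was Rgs1 in tumor, at 0.33 with the local background subtracted. No member had several probes, so the mean of a gene's probes changed no member. The counts of members moved more. With an offset of 16, 4 members were higher in Dclk1+ tumor than in Dclk1- tumor cells, 6 were higher and 5 lower in Dclk1+ normal than in Dclk1- normal cells, and 8 were higher in Dclk1+ tumor than in Dclk1+ normal cells. With the blank mean subtracted these counts were 4, 6, 5 and 8. Under that setting 8 members were higher in Dclk1- tumor than in Dclk1- normal cells, against 2 with the local background subtracted. In the setting of the text, 4.27% of all genes were higher in Dclk1+ tumor than in Dclk1+ normal cells. With an offset of 16 this share was 7.38%. For the other counts at that offset, and with blank or local background subtracted, no share of all genes was taken. Whether members moved more than all genes there was not tested. With the authors' intensities, 10 members were higher in Dclk1+ tumor than in Dclk1- tumor cells, 13 were higher and 12 lower in Dclk1+ normal than in Dclk1- normal cells, 11 were higher and 12 lower in tumor among Dclk1+ cells, and 11 were higher and 13 lower among Dclk1- cells. At 4-fold, 1 member was higher and 0 lower in Dclk1+ tumor than in Dclk1- tumor cells, 1 was lower in tumor among Dclk1+ cells, and 1 was higher and 1 lower among Dclk1- cells. The median over all genes moved to 0.35 and 0.27 in the tumor and normal pairs and to -0.40 among Dclk1+ and -0.50 among Dclk1- cells for tumor over normal with the authors' intensities, and to 0.13 and 0.14 in the 2 pairs with 75th percentile scaling. The cause of these moves was not tested.

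Each group is 1 array, so nothing here measures the spread between animals. Local background followed spot brightness closely (correlations of 0.921 to 0.979 over spots on the log scale), and with it subtracted the tumor pair of Gnai2 stood at -2.72, against 0.13. No paired analysis was possible because each group holds 1 sample.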
